A study of Mus musculus with 9 samples.

Results

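Chemokine genes grouped for a shared sensitivity to MEK were followed through nascent RNA of mouse CD8+ T cells. The 6 genes, *Ccl3*, *Ccl4*, *Ccl5*, *Ccl1*, *Ccl9* and *Xcl1*, were taken by symbol from 37022 genes with a value in the deposited tables. The genes were chosen by their measured gene-body differences between the groups in these same libraries, so their own levels and differences are given as a description, with no test. The grouping describes 3 of the 6. *Ccl3* and *Ccl4* had signal well above 50 in chronically stimulated cells and stayed near zero after acute stimulation and under MEK inhibition. *Ccl9* followed them in the gene body at a much lower signal, but its groups overlapped in the pause region. *Ccl5* did not differ between groups beyond the spread of the libraries, *Ccl1* had next to no signal over its coding transcript, and *Xcl1* was weak and was lower in both chronic groups than in the acute group in the gene body but not in the pause region. Here near zero means a group in which every library was below a signal of 50.

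The labels give 3 groups of 3 libraries of CD8 T cells: Acute, Chronic, and Chronic with inhibition of MEK (ChronicMEKi). By their protocol, 0.2 mM of the uridine analogue 5-ethynyl uridine was given to live T cells for 30 minutes, and RNA carrying it was captured on beads and sequenced, so a value reports RNA made in that window and not the amount stored in the cell. The strain, sex and age of the mice, the manner and duration of stimulation, the inhibitor with its dose, and whether libraries came from separate animals or cultures are not in the labels. P-values therefore measure the spread between these libraries, which may be technical. Fewer cells of a type and less RNA per cell cannot be told apart in such bulk libraries.

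Chemokines are small secreted proteins that bind G protein-coupled receptors and set the direction in which leukocytes move. CD8+ T cells make several of them after their antigen receptor is engaged. CCL3 and CCL4 are the close relatives known as macrophage inflammatory proteins. CCL3, CCL5 and CCL9 bind CCR1. CCL1 binds CCR8, and XCL1 binds XCR1, the receptor of cross-presenting dendritic cells. MEK is the kinase that activates ERK in the MAP kinase cascade, which T cell receptor signalling switches on.

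Across the libraries, deposited gene-body signal summed to between 48601800 and 52216200 and pause-region signal to between 4886440 and 8489260. Ribosomal RNA-like rows held 19.1% to 22.3% of the gene-body signal in Acute, 34.2% to 40.6% in Chronic and 29.0% to 36.1% in ChronicMEKi, and the part of this gap in the results was not tested. *Dusp6*, a phosphatase gene induced by ERK activity, had a scaled signal of 2505 ± 291 in Acute libraries, 2395 ± 89.2 in Chronic libraries and 204 ± 9.69 under MEK inhibition (SD, n = 3 each). All 6 T cell markers on the list passed the signal minimum, with summed signal of 21633 to 25598 in Acute, 14045 to 14940 in Chronic and 18385 to 20249 in ChronicMEKi. The sum included *Cd8a*, with means of 4061, 969 and 2881.

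Promoters are shown for *Ccl3* and *Ccl9*, the genes of the high-in-Chronic pattern with an entry in the RefSeq table. Each is the 250 bases before the RefSeq start, from build GRCm38.p6, minus strand, written 5′ to 3′, with the motif matches described below in capitals. The *Ccl3* window is chr11:83649379-83649628 and the *Ccl9* window is chr11:83578637-83578886. The RefSeq start of *Ccl3* lies 23 bases upstream of the start of the transcript row used for its signal.
Ccl3: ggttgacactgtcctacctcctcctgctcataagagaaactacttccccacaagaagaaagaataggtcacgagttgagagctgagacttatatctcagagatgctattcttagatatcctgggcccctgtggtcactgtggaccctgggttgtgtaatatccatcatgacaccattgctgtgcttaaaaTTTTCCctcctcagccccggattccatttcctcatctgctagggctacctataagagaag
Ccl9: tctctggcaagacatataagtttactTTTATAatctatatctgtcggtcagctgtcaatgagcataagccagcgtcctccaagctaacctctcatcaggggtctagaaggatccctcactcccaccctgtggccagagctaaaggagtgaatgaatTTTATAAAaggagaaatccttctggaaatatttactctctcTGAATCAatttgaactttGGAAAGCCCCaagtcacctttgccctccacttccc
All searches covered both strands. AP-1 was searched as TGANTCA, the cyclic AMP response element (CRE) as TGACGTCA and an ETS site as CCGGAAGT. The letters for NFAT, the factor switched on by calcium signalling, were GGAAAA. For the TATA box they were TATAAA, and NF-kB and the SRF CArG box were searched by their consensus. The capitals of *Ccl3* are an NFAT match, 60 to 55 bases before the start. In *Ccl9* the capitals are, in order, a TATA match, a pair of overlapping TATA matches, an AP-1 match 53 to 47 bases before the start and an NF-kB match 35 to 26 bases before it. The *Ccl1* window held 2 NFAT matches and 2 overlapping NF-kB matches, and the *Xcl1* window held none of the 7 motifs. Among 32851 promoter windows of the same length, 20.4% held the NFAT letters, 12.4% TATA, 7.25% NF-kB, 6.75% AP-1, 2.88% ETS, 1.55% CRE and 1.47% the CArG box. A match is a run of letters and not a bound site.

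*Ccl3* lies on chromosome 11 of GRCm38 from 83647844 to 83649355, on the minus strand. Its scaled gene-body signal was 448, 568 and 723 in Chronic replicates 1 to 3. In Acute the values were 1.28, 33.4 and 10.2, and in ChronicMEKi they were 4.81, 6.79 and 16.7. Every Chronic library stood above every library of the other groups, and Acute and ChronicMEKi overlapped. The group means were 15.0 ± 16.6 in Acute, 580 ± 138 in Chronic and 9.42 ± 6.35 in ChronicMEKi (SD, n = 3 each). The Chronic mean was 38.7 times the Acute mean and 61.5 times the ChronicMEKi mean. On the scale of log2(signal + 5), Chronic minus Acute was 5.22 (SE 0.63), ChronicMEKi minus Chronic was -5.40 (SE 0.63) and ChronicMEKi minus Acute was -0.18 (SE 0.63). The first of these rested partly on the scatter of the Acute libraries, being 4.57 without Acute replicate 1 and 5.86 without Acute replicate 2. ChronicMEKi minus Acute was -0.86 and 0.47 without the same libraries, so that neighbouring pair has no order.

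*Ccl4* starts 13.2 kb from *Ccl3* and runs the other way, on the plus strand of chromosome 11 from 83662584 to 83664683. Its signal was 822, 1016 and 1351 in Chronic. It was 15.4, 39.3 and 12.2 in Acute and 11.2, 27.2 and 7.29 in ChronicMEKi. The pattern was that of *Ccl3*, with Chronic apart from the rest and the other groups overlapping. Means were 22.3 ± 14.8, 1063 ± 268 and 15.2 ± 10.5 in Acute, Chronic and ChronicMEKi. The Chronic mean was 47.6 times that of Acute and 69.8 times that of ChronicMEKi. The log2 differences were 5.39 (SE 0.48), -5.82 and -0.43 in the same order as for *Ccl3*.

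*Ccl9*, which encodes a further CCR1 ligand of the macrophage inflammatory protein family, occupies 83572919 to 83578636 on the minus strand of chromosome 11, with its start 70.7 kb from that of *Ccl3*. Its signal was 19.2, 31.4 and 48.3 in Chronic, against 3.84, 1.31 and 2.72 in Acute and 0, 10.2 and 1.04 in ChronicMEKi. Chronic again stood above both other groups without overlap, but each value was below the minimum of 50 used for testing. Means were 2.62 ± 1.27 in Acute, 33.0 ± 14.6 in Chronic and 3.74 ± 5.60 in ChronicMEKi. Chronic minus Acute was 2.26 (SE 0.61) and ChronicMEKi minus Chronic was -2.23 (SE 0.61) on the log2 scale. At this signal the size follows the pseudocount: ChronicMEKi minus Chronic was -3.95 with 0.5 and -1.15 with 20 added. The *Ccl9* transcript of 3006 bases also shares a run of 50 bases with transcripts of 463 other genes, so its signal is uncertain.

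*Ccl5*, encoding the chemokine long known as RANTES, is on the minus strand of chromosome 11 from 83525778 to 83530518. Its signal was 28.8, 12.5 and 21.1 in Acute, 21.4, 31.4 and 43.8 in Chronic and 36.0, 45.0 and 17.7 in ChronicMEKi. All 3 groups overlapped, and no library reached 50. Means were 20.8 ± 8.18, 32.2 ± 11.2 and 32.9 ± 13.9. Chronic minus Acute was 0.54 (SE 0.55) and ChronicMEKi minus Chronic was -0.0046 (SE 0.55) in log2 units, both smaller than their standard error.

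For *Ccl1*, the row with the largest mean signal was a noncoding transcript of 129034 bases, on the minus strand of chromosome 11 from 82176657 to 82305690, which reaches far beyond the coding gene. That row gave 110, 16.4 and 84.3 in Acute, 21.4, 24.2 and 58.5 in Chronic and 16.0, 64.5 and 25.0 in ChronicMEKi, with all groups overlapping. Its Chronic minus Acute difference of -0.72 (SE 0.70) was -1.47 without Acute replicate 2. Over the principal coding transcript of 3156 bases the means were 4.48 ± 5.69 in Acute, 1.15 ± 1.13 in Chronic and 1.196 ± 1.28 in ChronicMEKi. The coding gene was thus near zero in all groups, and the larger row does not measure it.

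*Xcl1*, encoding lymphotactin, sits on chromosome 1 from 164931644 to 164935527, on the minus strand. Its signal was 11.5, 21.6 and 16.3 in Acute. It was 2.25, 6.05 and 0 in Chronic and 5.61, 5.09 and 0 in ChronicMEKi. Acute stood above both chronic groups without overlap, and the chronic groups overlapped each other. Only the direction of Chronic against Acute was opposite to that of *Ccl3*. Means were 16.5 ± 5.06, 2.77 ± 3.06 and 3.57 ± 3.10, all near zero by the definition used. The log2 difference was -1.52 (SE 0.57) for Chronic minus Acute, 0.14 for ChronicMEKi minus Chronic and -1.38 for ChronicMEKi minus Acute. The first was -2.98 with 0.5 and -0.68 with 20 added to the signal. *Xcl1* overlaps *Gm20743* on the opposite strand and shares a run of 50 bases with it. The use of strand in counting is not given in the sources used here, so reads of the pair cannot be told apart.

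**Figure D1:**
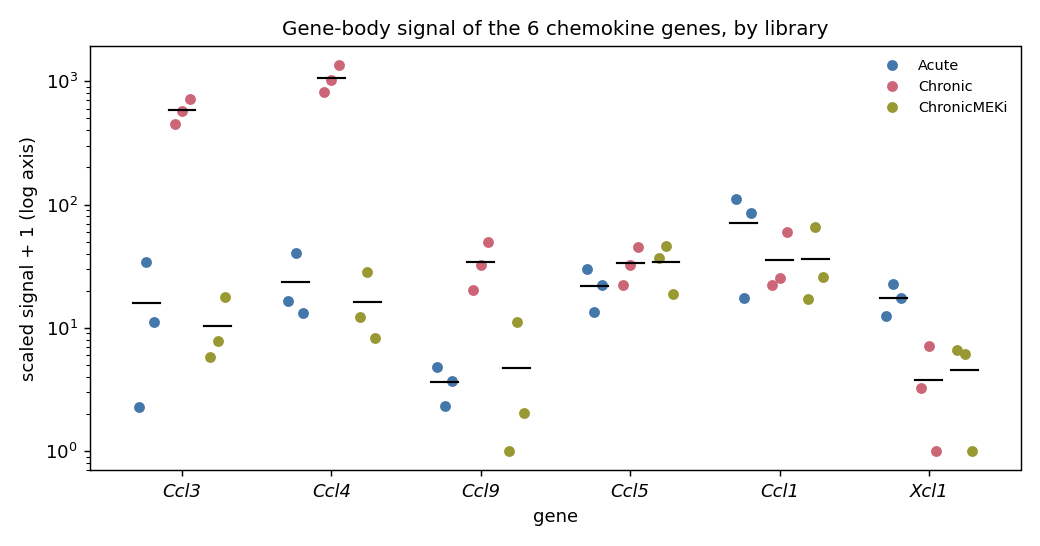
Scaled gene-body signal plus 1 on a log axis for the 6 genes, with 1 point per library, coloured by group, and a line at each group mean. The Chronic libraries of *Ccl3* (448 to 723) and *Ccl4* (822 to 1351) sit apart from all others, while those of *Ccl5* and *Ccl1* overlap the other groups.

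**Figure D2:**
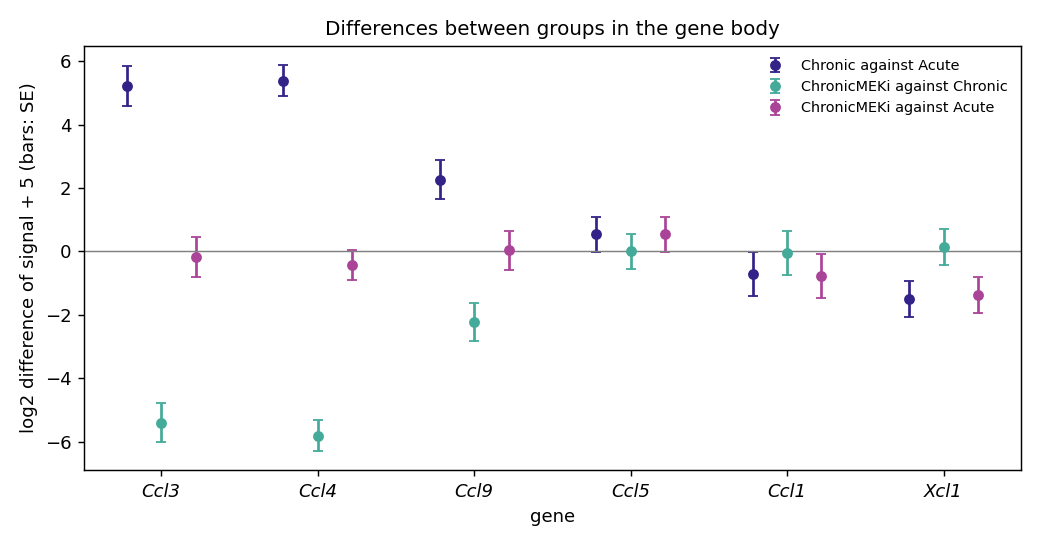
Log2 differences of gene-body signal plus 5 for the 3 comparisons, by gene, with the standard error of the limma fit as bars. *Ccl3* and *Ccl4* lie beyond 5 in opposite directions in the comparisons that involve Chronic, *Ccl9* lies at 2.26 and -2.23, and *Xcl1* is negative in both comparisons with Acute.

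Only 3 of the 6 genes passed the signal minimum, at least 50 in at least 3 libraries: *Ccl3*, *Ccl4* and the long *Ccl1* row. *Ccl3* and *Ccl4* passed through the Chronic group alone, so that they differ between groups follows from the minimum. No call is given for any member. Chronic stood wholly above Acute for *Ccl3*, *Ccl4* and *Ccl9*, an arrangement found for 22.4% of the 15942 genes tested, and ChronicMEKi stood wholly below Chronic for the same 3 genes, as for 14.4% of genes. *Xcl1* was wholly below Acute in both chronic groups, as were 21.9% of genes tested for Chronic and 19.6% for ChronicMEKi. These counts describe the choice of members, and nothing is read from them.

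Levels can be set side by side only per length. Per kb of transcript span, the Chronic mean signal was 383 for *Ccl3* and 506 for *Ccl4*, higher than in 96.1% and 97.2% of the genes tested. In Acute the same genes had 9.90 and 10.6 per kb, higher than 27.5% and 28.3% of genes tested, and in ChronicMEKi 6.23 and 7.25, higher than 21.7% and 23.0%. *Ccl5* had 4.38, 6.80 and 6.94 per kb in Acute, Chronic and ChronicMEKi, *Ccl9* 0.459, 5.77 and 0.654, and *Xcl1* 4.25, 0.712 and 0.918. The order in Chronic was *Ccl4*, *Ccl3*, *Ccl5*, *Ccl9* and *Xcl1*. *Ccl4* with *Ccl3*, and *Ccl5* with *Ccl9*, are neighbours in that order whose ranges over the libraries overlapped. Both genes of a pair were measured in the same libraries, so overlap of ranges does not decide their order.

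The second deposited table covers the pause region, read here from its name as the stretch near the transcription start where polymerase can stall before elongation. *Ccl3* had 94.1, 190 and 184 there in Chronic, against 0.883, 11.3 and 9.88 in Acute and 0.673, 0 and 0 in ChronicMEKi. *Ccl4* had 244, 549 and 529 in Chronic, 7.95, 12.5 and 30.6 in Acute and 4.71, 18.9 and 3.83 in ChronicMEKi. For both genes Chronic stood apart, as in the gene body, so the low signal in Acute and ChronicMEKi extended to the start of the genes. Chronic was wholly above Acute in the pause region for 12.6% of the 7678 genes tested there, and ChronicMEKi wholly below Chronic for 10.5%. For *Ccl3*, Chronic minus Acute was 3.78 (SE 0.90) and ChronicMEKi minus Chronic -4.89 on the log2 scale, and for *Ccl4* they were 4.39 (SE 0.55) and -5.04. The pause table comes from the same libraries as the gene-body table and is no separate replicate. The other 4 members had no pause-region value above 14.0 in any library. *Ccl9* had 9.41, 0 and 10.1 there in Chronic and 0 in every library of Acute and ChronicMEKi, so its groups overlapped. For *Xcl1* the pause-region means were 3.93 ± 4.49 in Acute, 5.02 ± 7.80 in Chronic and 3.19 ± 3.91 in ChronicMEKi, with all groups overlapping. Its log2 differences there, 0.020 for Chronic minus Acute and -0.11 for ChronicMEKi minus Acute, did not repeat the gene-body differences of -1.52 and -1.38.

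**Figure D3:**
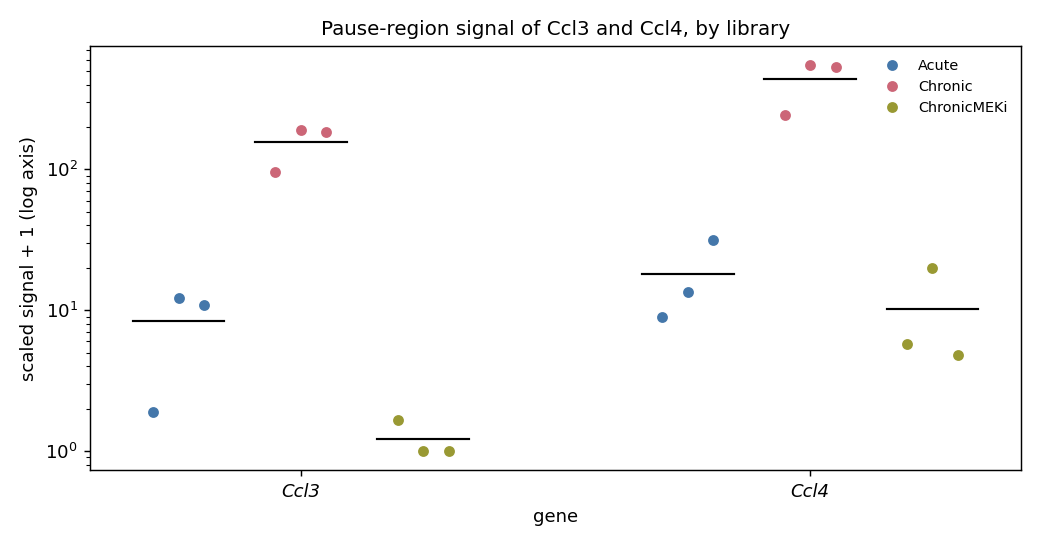
Scaled pause-region signal plus 1 on a log axis for *Ccl3* and *Ccl4*, with 1 point per library and a line at each group mean. The Chronic libraries, from 94.1 to 190 for *Ccl3* and from 244 to 549 for *Ccl4*, lie above all others, and 2 ChronicMEKi libraries of *Ccl3* are at 0.

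The ratio of pause-region to gene-body signal was taken from the deposited values, before the scaling of each table. In Chronic, where both regions carried signal, it was 0.227, 0.347 and 0.285 for *Ccl3* (0.286 ± 0.0601, n = 3). It was 0.320, 0.560 and 0.438 for *Ccl4* (0.44 ± 0.12). The median over the 7413 genes that passed in both tables was between 0.0753 and 0.0817 in these libraries, and 82.4% and 88.0% of them had a lower mean ratio than *Ccl3* and *Ccl4*. The ratio was not corrected for length, and both genes are short, with spans of 1512 and 2100 bases. No ratio is given for the other groups, whose signal was near zero.

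*Ccl3*, *Ccl4*, *Ccl5* and *Ccl9* share a stretch of chromosome 11 in which *Ccl5* starts 118.8 kb from *Ccl3*. The members' transcripts were compared with each other. Coding sequences of *Ccl3* and *Ccl4*, 276 bases each, were 68.1% identical, and the longest run their transcripts shared was 9 bases. Over all 15 pairs of members, the longest shared run was from 9 to 13 bases, and coding identity ranged from 41.3% to 68.1%. These are spliced transcripts, and introns, which nascent RNA also holds, were not compared. Neither gene overlapped another annotated gene.

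Few of the genes around the members passed the test. Within 250 kb of a member the annotation held 54 other genes, of which 43 had a row and 8 passed the minimum. The nearest tested gene to the right of *Ccl3* and *Ccl4* was *Heatr6*, 104341 and 89013 bases away, with untested genes between. *Heatr6* had 2170, 1840 and 1856 as group means in Acute, Chronic and ChronicMEKi. Its log2 differences were -0.24, 0.012 and -0.22, none past the threshold. On the left the nearest tested gene was *Taf15*, which encodes an RNA-binding protein, 141101 and 155841 bases away. *Taf15* had differences of 0.021, -0.0040 and 0.017. *Asic2*, near *Ccl1*, and *Gm20743*, over *Xcl1*, did not pass in any comparison with all 9 libraries under the scaling used. Without Acute replicate 2, *Asic2* was lower in Chronic and in ChronicMEKi than in Acute, by -1.42 and -1.15 in place of -0.71 and -0.44 (limma adjusted p = 0.0113 and 0.0429). Without Chronic replicate 2, *Gm20743* was lower in Chronic than in Acute by -1.95 in place of -1.27 (adjusted p = 0.0405). With all 9 libraries *Gm20743* was also called lower there under library totals (-1.69, adjusted p = 0.0372) and the deposited scale (-1.68, adjusted p = 0.0370). With libraries scaled to their totals instead, 6 of the 8 genes, *Heatr6* and *Taf15* among them, were called lower in Chronic than in Acute and 4 lower in ChronicMEKi than in Acute. That scaling moved the median of all genes by -0.49 and -0.38 in these comparisons. The share of all genes called under it is not given here, so nothing particular to the neighbours is read from these calls. *Taf15* stood at -0.47 and -0.37 under library totals.

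Limma called 1 of the 8 genes in each comparison, against 33.9%, 17.6% and 25.8% of all genes tested. *Sft2d2*, on the *Xcl1* side of chromosome 1, fell by 0.60 from Acute to Chronic (adjusted p = 0.0357) and rose by 0.72 with MEK inhibition (adjusted p = 0.0235). The first of these calls was lost without Acute replicate 1, 2 or 3, Chronic replicate 1 or ChronicMEKi replicate 3. That for ChronicMEKi against Chronic was lost without Acute replicate 3, Chronic replicate 1 or ChronicMEKi replicate 1 or 3. The median log2 difference of the 8 genes was -0.19, 0.065 and -0.19, beside -0.016, 0.037 and 0.0033 over all genes tested.

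**Figure D4:**
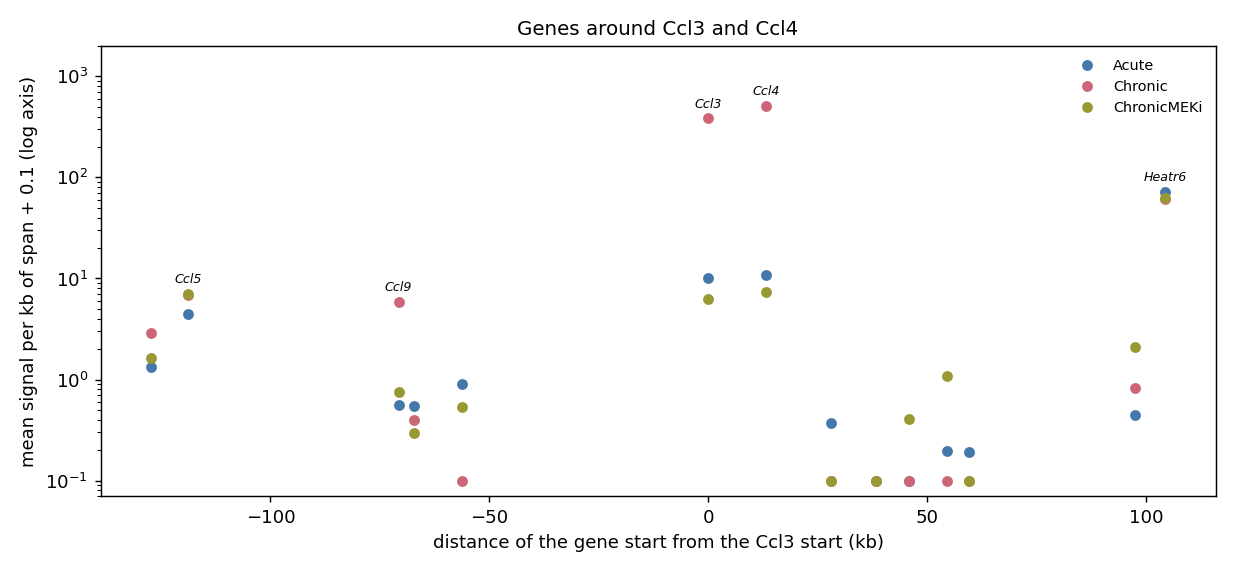
Mean signal per kb of span plus 0.1 on a log axis for the 14 genes with a row that start within 150 kb of the *Ccl3* start, by distance in kb and coloured by group. *Ccl3* and *Ccl4* reach 383 and 506 in Chronic, while *Heatr6* holds 72.2, 61.2 and 61.8 in Acute, Chronic and ChronicMEKi.

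Among the other chemokine ligand genes, none had the signal of *Ccl3* and *Ccl4* in Chronic over its principal transcript. Of 36 symbols on the list, 33 had a row, and 31 of those were below 50 in every library, among them *Ccl2*, *Ccl8* and *Cxcl13*, which were listed at 0 throughout. Per kb of principal transcript, *Ccl3* and *Ccl4* made up 24.3% ± 19.6 of the summed signal of 39 ligand genes in Acute, 94.3% ± 2.03 in Chronic and 20.4% ± 4.87 in ChronicMEKi (SD, n = 3). The sums themselves were 81.9 ± 12.5, 941 ± 218 and 66.5 ± 21.0. The share depends on the rows and on length: with principal transcripts not divided by length it was 11.1% ± 8.81, 84.2% ± 5.39 and 7.65% ± 0.669, and with the rows used for the other results 1.55% ± 1.204, 38.7% ± 7.12 and 1.18% ± 0.474. Principal transcripts were taken up after the data had been seen.

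Only *Cxcl16* and *Ccl25* of that list could be tested. *Cxcl16*, encoding the membrane-bound ligand of CXCR6, had 90.3, 96.4 and 50.3 in Acute, 20.3, 8.47 and 97.8 in Chronic and 54.5, 93.4 and 83.3 in ChronicMEKi. Chronic replicate 3 lay with the other groups, and the differences of -1.31 and 1.29 missed limma's threshold (adjusted p = 0.117 and 0.180). Without that library they were -2.14 and 2.13, with adjusted p = 0.00858 and 0.0165. *Cxcl16* overlaps *Zmynd15* on the opposite strand. *Ccl25* was lower by -0.36 in ChronicMEKi than in Chronic (SE 0.12, limma adjusted p = 0.0458), but its row of 34789 bases overlaps *Elavl1*, and over its principal transcript it did not reach the minimum. That call was lost without Chronic replicate 1 or 2 and without ChronicMEKi replicate 2 or 3. Limma called neither gene in the comparisons with Acute, with 0 at an unadjusted p below 0.05 in each. The medians of the pair were -0.56, 0.47 and -0.089.

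**Figure D5:**
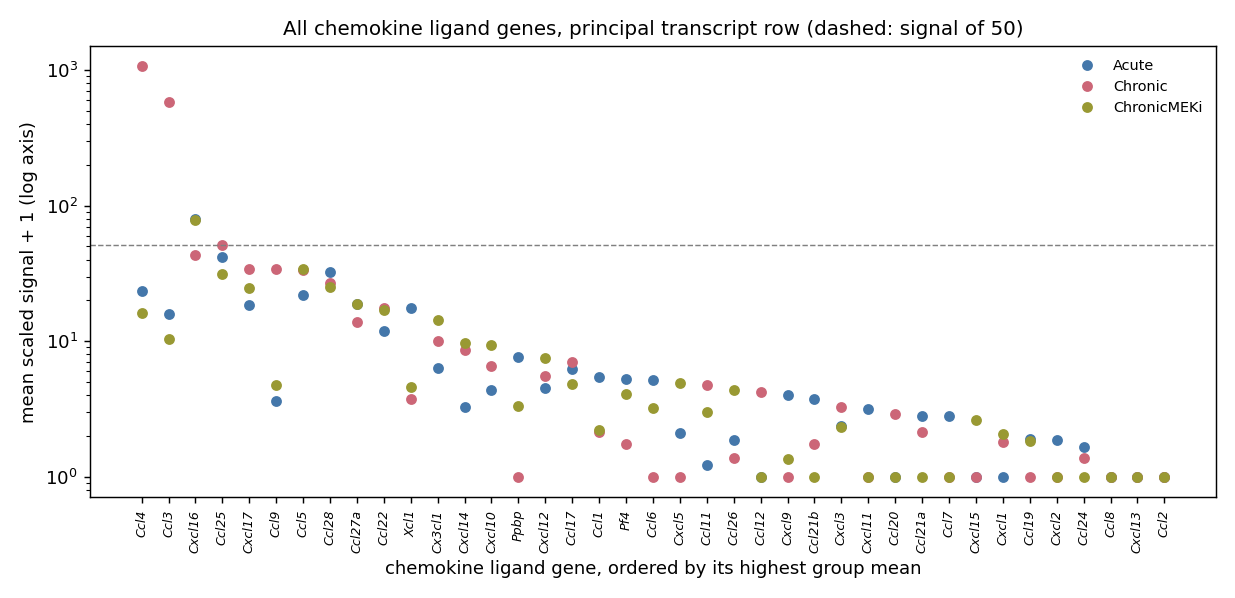
Mean scaled signal plus 1 of every chemokine ligand gene with a row over its principal transcript, on a log axis, ordered by the highest group mean and coloured by group, with a dashed line at a signal of 50. *Ccl3* and *Ccl4* reach 580 and 1063 in Chronic, and nearly all other genes lie below the dashed line.

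Receptor genes for chemokines were read next. *Ccr8*, the receptor for CCL1, lies on chromosome 9 from 120092114 to 120094906. It had 305, 424 and 506 in Acute, 850, 599 and 1085 in Chronic and 553, 441 and 527 in ChronicMEKi. It was higher in Chronic than in Acute by 1.02 (SE 0.23, limma adjusted p = 0.00182) with no overlap. The lower level in ChronicMEKi, by -0.70 (adjusted p = 0.0415), lost its call without Chronic replicate 1 or 3 and without any 1 of the 3 ChronicMEKi libraries, where adjusted p ranged from 0.0514 to 0.187. Scaling by library totals left both *Ccr8* differences short of the threshold (0.53 and -0.59, adjusted p = 0.0585 and 0.0880).

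*Ccr1* and *Xcr1*, the receptors for CCL3, CCL5 and CCL9 and for XCL1, did not pass the signal minimum and are described only. *Ccr1* had 49.6, 77.4 and 69.7 in Chronic, 27.5, 7.21 and 13.6 in Acute and 0, 0 and 4.17 in ChronicMEKi. *Xcr1* had 16.9, 75.0 and 69.7 in Chronic, 4.48, 1.31 and 13.6 in Acute and 1.60, 0 and 5.21 in ChronicMEKi. Both were highest in Chronic without overlap, though for *Xcr1* the gap to Acute was only 16.9 against 13.6. Chronic stood wholly above Acute for 22.4% of the genes tested, and ChronicMEKi wholly below Chronic for 14.4%. Nothing about a pairing with the ligands is read from this.

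Of the 24 receptor symbols, 23 had a row and 11 passed the minimum. Limma called 6 of the 11 in each comparison: 3 higher and 3 lower in Chronic than in Acute, and 2 higher and 4 lower in ChronicMEKi than in Chronic and than in Acute. Over all genes tested the called share was 33.9%, 17.6% and 25.8%. Under library totals the split was 1 higher and 4 lower in Chronic against Acute, 2 and 3 in ChronicMEKi against Chronic, and 0 and 6 in ChronicMEKi against Acute. On the deposited scale it was 1 and 4, 2 and 3, and 0 and 5. The list's median log2 difference was -0.047, -0.10 and -0.0080.

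*Cxcr6*, a marker of tissue-resident T cells, went the same way as *Ccl3* and *Ccl4* in the comparisons involving Chronic, rising by 1.61 from Acute to Chronic (adjusted p = 1.06e-05) and falling with MEK inhibition by -2.93 (adjusted p = 1.54e-08). Its ChronicMEKi level was also below that of Acute, by -1.32 (adjusted p = 1.38e-04), and it overlaps *Fyco1* on the opposite strand. *Ccr7*, which guides T cells to lymph nodes, went the other way, with -2.33 (adjusted p = 1.53e-11), 1.22 (adjusted p = 1.57e-07) and -1.11 (adjusted p = 3.70e-07) in limma. *Cxcr4*, the receptor for CXCL12, had -1.02 (adjusted p = 4.44e-04), 1.86 (adjusted p = 1.30e-06) and 0.84 (adjusted p = 0.00320), the last of which lost its call under library totals.

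*Ccr2*, a receptor for CCL2, had 164, 81.9 and 177 in Acute, 50.7, 152 and 61.8 in Chronic and 12.8, 11.9 and 16.7 in ChronicMEKi. It was lower in ChronicMEKi than in Chronic by -2.16 (adjusted p = 0.00580) and than in Acute by -2.89 (adjusted p = 3.42e-04). The first of these calls was lost without Chronic replicate 2 (adjusted p = 0.0527). *Ccr4* was higher by 0.43 in Chronic and by 0.33 in ChronicMEKi than in Acute (adjusted p = 0.00251 and 0.0206), but they turned to -0.063 and -0.056 when libraries were scaled to their totals. The *Ccr4* call for ChronicMEKi against Acute was also lost without Acute replicate 1 or 3 and without ChronicMEKi replicate 1 or 3.

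Macrophages and natural killer cells also make CCL3 and CCL4, so their markers were read beside these genes. Of 8 macrophage or monocyte markers, 3 passed the minimum, and their summed signal was 286 to 319 in Acute, 247 to 258 in Chronic and 167 to 368 in ChronicMEKi. The markers went both ways. Means in Acute and Chronic were 2.45 and 12.4 for *Fcgr1*, 91.4 and 103 for *Cd68*, 0.867 and 3.23 for *Cd14* and 0.906 and 1.88 for *Lyz2*, against 88.7 and 62.3 for *Adgre1*, 77.3 and 54.3 for *Csf1r* and 32.4 and 16.3 for *Spi1*. The part of these cells in the result was not tested. The 2 natural killer markers summed to 7.87 to 19.2, 19.1 to 34.9 and 32.2 to 54.2 in the same order, with neither past the minimum. They went opposite ways, with means of 9.87, 24.1 and 40.6 for *Klrb1c* and 3.91, 1.96 and 0 for *Ncr1*. The part of natural killer cells in the result was not tested. The 5 mast cell or basophil markers, none past the minimum, summed to 22.3 to 74.7, 2.25 to 25.9 and 16.0 to 67.9. The 4 dendritic cell markers, which include *Xcr1*, summed to 206 to 281, 312 to 342 and 158 to 230, with 2 past the minimum. In Acute, Chronic and ChronicMEKi, *Zbtb46* had means of 194, 241 and 161 and *Xcr1* of 6.46, 53.9 and 2.27, both highest in Chronic. *Flt3* had 45.9, 29.7 and 29.8 and *Siglech* 5.76, 3.87 and 8.04, both lower in Chronic than in Acute. The part of dendritic cells in the result was not tested. The 5 B cell markers, 2 past the minimum, summed to 534 to 565, 189 to 219 and 160 to 435, and *Cd4* ranged over 383 to 496, 144 to 344 and 101 to 141. No marker on any list was at 0 in all 9 libraries.

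Genes outside the family were ranked by the Pearson correlation of their log2 signal with the members over the 9 libraries, a description in which the points share libraries and groups. Against the mean profile of *Ccl3* and *Ccl4*, chosen after the 6 genes were seen to differ, the closest was *Cd83* (r = 0.987), which encodes an activation glycoprotein. *Cd83* had means of 89.0 ± 26.1 in Acute, 1020 ± 94.4 in Chronic and 98.6 ± 30.5 in ChronicMEKi. Next came *Traf1*, an adaptor of tumour necrosis factor receptors (r = 0.986), with 3348, 6623 and 3172, then *BB557941* (r = 0.985) and *Ehd2* (r = 0.984), a membrane-trafficking gene with 29.4, 542 and 24.4. *Ripk2*, *Maf*, *Ccdc85b* and *Zdhhc21* followed with r from 0.979 to 0.981. All 8 had their highest mean in Chronic, which follows from ranking by a profile that is high there.

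Against the mean of all 6 members, the closest were *Padi1* (r = 0.958), *Atg4c* (r = 0.940), *Klra7* (r = 0.938), *Lhfp* (r = 0.932), *Med12l* (r = 0.930), *Etv4* (r = 0.929), *Ebpl* (r = 0.924) and *Evi2a* (r = 0.916). That mean includes the long *Ccl1* row, and the members do not share it. Their own r with it was 0.926 for *Ccl9*, 0.815 for *Ccl4* and 0.683 for *Ccl3*. It was 0.576 for *Ccl5*, 0.373 for *Ccl1* and -0.176 for *Xcl1*. *Etv4*, an ETS transcription factor gene known as a target of ERK signalling, had means of 35.3 ± 18.7 in Acute, 115 ± 14.6 in Chronic and 18.3 ± 11.3 in ChronicMEKi. No gene appeared in both rankings.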

How the data were processed

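The authors deposited 2 tables of 118482 transcript rows for 9 libraries, read from their names as gene body and pause region. Per the submitters' processing notes, FastQC 0.12.0, Trim Galore 0.6.10, STAR 2.7.0a, SAMtools 1.19.2, deepTools 0.1.9 and R 4.1.2 were used with build mm10. Their roles, the regions' coordinates, the annotation and the use of strand are not given in the sources used here. The deposited values are treated as signal, despite the word counts in the tables' names. Below 1000 steps, every value was within 0.05 of a whole multiple of a step of 0.764 to 1.06 per library. Values of 4 steps (11415) outnumbered values of 1 step (7607), which whole reads would not give. Depth in reads is unknown and no counting interval is given.

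Rows were matched to GENCODE M21 (117346 with version, 383 without, 753 unmatched), and each gene was represented by its row of highest average gene-body signal. Genes were tested where 3 or more libraries had a deposited signal of 50 or more. Scaling used the trimmed mean of log ratios without weights over those genes, dropping 30% of ratios and 5% of levels at each end. limma 3.58.1 in R 4.3.3 was fitted to log2(signal + 5) of all 9 libraries with a mean per group, a trend and robust moderation, with Benjamini-Hochberg adjustment over all genes of a comparison and a threshold of 0.05. Fold changes of weak genes are understated. Standard errors of members below the minimum come from the same fit over all genes. The fit was tested on simulated data. Python 3.11.15 and pandas 2.3.3 joined the tables.

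The members and lists were chosen with earlier results of these data known. The text names all members, called ligand and receptor genes, the receptors *Ccr1*, *Ccr8* and *Xcr1*, the nearest tested and the called genes within 250 kb, and the 8 genes most alike. Some genes that this rule covers are not reported here. *Ccl21c*, *Ccl21d*, *Ccl27b* and *Cxcr3* had no row. The RefSeq promoter table matched 4 of the 6 members. Alternatives covered scaling, pseudocount, minimum, transcript row, table, the replicate number as a block and leaving out each library. Rows of the APPRIS principal transcript, and the likeness to *Ccl3* and *Ccl4*, were added after seeing the data.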

Additional observations from a re-analysis of the deposited data

How the results depend on the processing

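Directions of *Ccl3*, *Ccl4* and *Ccl9* in Chronic against Acute and ChronicMEKi against Chronic held under every alternative run. In the pause-region table, however, the Chronic libraries of *Ccl9* overlapped the other groups. Of 342 member values under alternatives, 320 stayed within 1 SD and 22 moved further, with other pseudocounts or the pause-region table. Part of the 342 could hardly move, so this count is no measure of robustness. A member's difference is the same by construction without a minimum and with the replicate block. It changes little when a library outside the comparison is left out, and most members keep their row under the other choices of transcript. The gene-body difference of *Xcl1* from Acute was not seen in the pause-region table (0.020 in Chronic, -0.11 in ChronicMEKi). Leaving out each library gave 4.57 to 5.86 and -5.75 to -5.21 for *Ccl3*, 5.12 to 5.80 and -6.21 to -5.52 for *Ccl4* and 1.99 to 2.55 and -2.72 to -1.95 for *Ccl9*. Other settings gave 3.78 to 6.04 and -6.03 to -4.34, 4.39 to 5.70 and -6.26 to -4.95, and 1.04 to 3.41 and -3.95 to -1.04. Against the scaling used, library totals moved the median of all genes by -0.49, 0.11 and -0.38 in Chronic against Acute, ChronicMEKi against Chronic and ChronicMEKi against Acute, the deposited scale by -0.47, 0.13 and -0.34, and totals without ribosomal RNA-like rows by -0.16, -0.010 and -0.17. In that order of comparisons, called ligands outside the members went from 0, 1 and 0 to 1, 0 and 1 under library totals and under the deposited scale. They were 1 without a minimum in the first (*Ppbp*, named after its value was seen), 0 in the second without a minimum, in the pause-region table and with principal transcripts, and 1 in the third with totals without ribosomal RNA-like rows. Called receptors went from 6 each to 2, 0 and 1 in the pause-region table, where 7678 genes were tested against 15942 in the gene body. The number of receptors tested there, and the share of all genes called under the alternatives, are not given here. Called genes within 250 kb went from 1 each to 6 (Chronic against Acute) and 4 (ChronicMEKi against Acute) under library totals, 5 and 3 under the deposited scale, 3 and 3 with totals without ribosomal RNA-like rows, all lower, and to 0 in all 3 without a minimum and in the pause-region table, and to 0 in the third with the longest transcript. The cause was not tested. Leaving out each library gave 0 to 1, 0 to 2 and 0 to 0 ligands, 6 to 6, 4 to 6 and 5 to 6 receptors, and 0 to 2 nearby genes in each comparison. In the first comparison, the ligand count rose without Chronic replicate 3, and in the second it was 0 without Chronic replicate 1 or 2 or ChronicMEKi replicate 2 or 3 and 2 without Chronic replicate 3. The nearby count was 2 without Chronic replicate 2 in the first and second and without Acute replicate 2 in the third. *Ccr4* turned to -0.063, -0.046 and -0.13 in Chronic against Acute and to -0.056, -0.016 and -0.28 in ChronicMEKi against Acute under library totals, the deposited scale and the pause-region table. *Taf15* turned to -0.47 and -0.45 in the first under library totals and the deposited scale and to -0.37 in the third under library totals. Same-numbered libraries did not deviate together (r from -0.53 to 0.10 over 9 pairs), so the numbers were not taken to pair libraries. Between libraries of different number and group, r ran from -0.37 to 0.51 over 18 pairs, with 5 above 0.1. The fit holds no term for deviations shared in this way. With the replicate number as a block, 2 nearby genes were called in the second comparison, and no other count moved by over 1.5 times. The number of libraries and the signal near zero in Acute and ChronicMEKi limit the precision of every fold.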
